A study of Rattus norvegicus with 24 samples.

Results

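Or51e1 is an olfactory receptor gene, known as Olr63 in older rat annotation, and it was chosen by its signal, which was far higher in isolated microvessels (MVs) than in the tissue they came from. It is 1 of 1185 olfactory receptor genes and 1 of 18166 named genes on the array, and a single transcript cluster measures it. Since the choice rests on the retinal and the brain MV excess, both are given as a description without a test. The other comparisons were tested, and of these the difference between the 2 excesses is built from values the choice used. The 4 groups were retinal MVs (RMVs), brain MVs (BMVs), full retinal tissue (RT) and full brain tissue (BT). All came from 12-week-old male rats of the Wistar strain, 6 in number and without a stated treatment. Part of the cryosections of each retina and brain hemisphere was kept as tissue, and the MVs were captured from the homogenate of the remaining sections on a nylon mesh, so each tissue group also contains vessels. Each group has 6 arrays, 24 in all (Affymetrix Rat Gene 2.0 ST). The labels and methods do not say that a replicate number marks the same rat in all groups.

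Olfactory receptors are G protein-coupled receptors that sense odorants in the cilia of olfactory sensory neurons, where each neuron uses a single receptor gene. They signal through the G protein Golf, adenylyl cyclase 3 and a cyclic nucleotide-gated channel. Some of them are also transcribed outside the nose, which is called ectopic expression, and Or51e1 and its relative Or51e2 are among the best known of these. In humans and mice, the products respond to short fatty acids, OR51E1 to butyrate and isovalerate and OR51E2 to acetate and propionate. Both are class I receptors, the evolutionarily older group that holds families 51 to 56, and class II holds families 1 to 14. No olfactory epithelium was measured in these samples.

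The start regions of Or51e1 and Or51e2 are shown because these neighbours are the only pair in their subfamily and differed widely in MV excess. Or51e2 is listed as Olr59 in the rat annotation, and that name is used below. The windows come from RefSeq (build GRCr8), each with 250 bases before and 50 bases from the start of an annotated transcript. The Or51e1 window is chr1:166559971-166560270 on the plus strand, and the Olr59 window is chr1:166610854-166611153 on the minus strand. Lower case marks the bases before the transcript start and capitals the 50 bases from it.
Or51e1: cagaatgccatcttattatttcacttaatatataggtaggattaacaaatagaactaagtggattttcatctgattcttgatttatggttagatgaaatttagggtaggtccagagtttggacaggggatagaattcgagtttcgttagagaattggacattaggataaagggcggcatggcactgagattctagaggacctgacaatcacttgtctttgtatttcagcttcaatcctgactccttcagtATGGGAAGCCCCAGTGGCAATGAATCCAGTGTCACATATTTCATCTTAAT
Olr59: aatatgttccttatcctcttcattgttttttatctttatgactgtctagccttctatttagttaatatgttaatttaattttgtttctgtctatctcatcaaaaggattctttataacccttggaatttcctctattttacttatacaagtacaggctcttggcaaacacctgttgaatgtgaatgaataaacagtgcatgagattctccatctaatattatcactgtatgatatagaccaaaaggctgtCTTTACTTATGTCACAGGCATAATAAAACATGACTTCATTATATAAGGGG
The start used lies 6109 bases inside the annotated span of Or51e1 and 28731 bases inside that of Olr59, so neither window shows the outermost end of its gene. The capitals of Or51e1 open with ATG, the letters of a start codon. That annotated start may thus be the start of the coding sequence, and the window may not hold a promoter. The motifs were searched on both strands. The CArG box, which serum response factor binds in smooth muscle genes, had 0 matches in either window, beside 1.64% of all 33469 RefSeq windows and 0.901% of 999 windows of olfactory receptors. The E-box CANNTG had 2 matches in Or51e1 and 1 in Olr59, and 72.1% of all windows hold it. The homeodomain motif TAATNA, frequent near olfactory receptor genes, had 1 match in Or51e1 and 2 in Olr59. It was found in 28.0% of all windows and in 65.2% of those of receptors. CCCNNGGG, bound by Ebf factors, had 0 matches in both, and 12.4% of all windows and 1.2% of receptor windows hold it. A match is a description of letters and no binding site, and an absent match says only that these letters are not in these windows.

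Or51e1 was at a high signal in all MV arrays of both organs and at a low signal in all tissue arrays. In RMVs its deposited signal was 10.19 at the lowest array, 10.37 at the median and 10.70 at the highest (log2). RT ranged from 5.20 over a median of 6.00 to 6.84. The lowest RMV array thus stood above the highest RT array by a wide margin, and the groups did not overlap. BMVs ranged from 9.93 over a median of 10.06 to 10.69, and BT from 4.53 over 5.0 to 5.29. Again the groups did not overlap. All MV arrays lay above all tissue arrays for 42.6% of all genes in the retina and 40.8% in the brain. The BMV range was set by replicate 6 at 10.69, as the other 5 BMV arrays lay at or below 10.11. The spread was widest in RT, where replicates 1 and 3 were near 5.2 and replicate 4 was at 6.84.

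**Figure D1:**
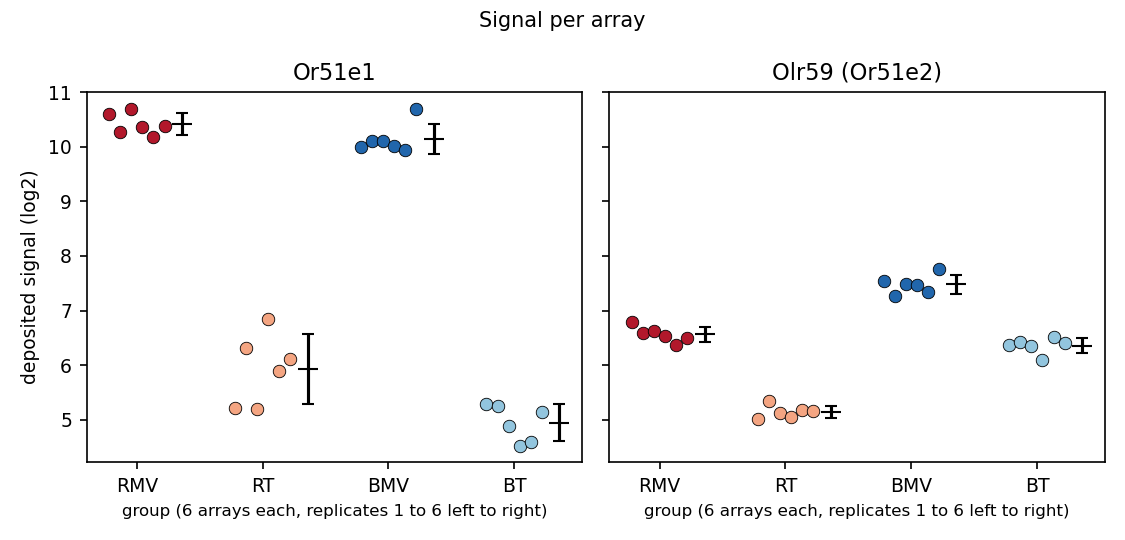
Deposited signal (log2) of Or51e1 and Olr59 on each array, by group. Points are arrays, and the bars at the right of each group give the mean and SD of its 6 arrays. All RMV and BMV arrays of Or51e1 lie at 9.93 or above and all tissue arrays at 6.84 or below.

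The mean of Or51e1 was 10.42 ± 0.19 for RMVs and 5.93 ± 0.64 for RT, and 10.14 ± 0.28 for BMVs and 4.94 ± 0.33 for BT (log2, SD, n = 6 arrays each). RMVs exceeded RT by 4.49 (95% confidence interval 4.07 to 4.92), a 22.5-fold enrichment (16.8 to 30.3). BMVs exceeded BT by 5.20 (4.77 to 5.63), a 36.7-fold enrichment (27.3 to 49.3). Without BMV replicate 6 the brain difference was 5.09. Ordered by size among all 18166 genes, these differences took rank 10 in RMVs and rank 3 in BMVs. After quantile normalization of the 24 arrays they were 4.40 and 4.64, at the same ranks. These values are the ones that singled the gene out and carry no test. The deposited values come without a detection call, so it is not known whether the tissue signals of Or51e1 lay above background. The folds are ratios of deposited signals, and where a tissue signal is background the enrichment is at least as large. More cells with this RNA and more of it per cell cannot be told apart in such samples.

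The MVs of the 2 organs were not shown to differ in Or51e1, whereas the tissues differed. RMVs were 0.28 above BMVs (log2, 95% confidence interval -0.15 to 0.71, 1.21-fold), with a limma adjusted p of 0.237. The arrays overlapped through BMV replicate 6 alone, as the other 5 BMV arrays (up to 10.11) lay below the lowest RMV array (10.19). Of all genes, 5.72% were called higher and 5.25% lower in RMVs than in BMVs at 2-fold and an adjusted p under 0.05. The size of this difference turned on the scale. It was 0.41 with quantile normalization (adjusted p = 0.0906), 0.02 with each array centred on the other olfactory receptors and -0.02 with each array centred on its median. Without BMV replicate 6 it was 0.39 (adjusted p = 0.104), and a fit of the RMV and BMV arrays alone gave an adjusted p of 0.0531.

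RT was 0.98 above BT (log2, 95% confidence interval 0.56 to 1.41, 1.98-fold), and limma gave an adjusted p of 0.000144. The ranges just overlapped, as the lowest RT arrays at 5.20 and 5.22 lay below the 2 highest BT arrays at 5.25 and 5.29. The difference passed the adjusted p but was just short of the 2-fold that 6.29% of all genes passed as higher in RT. After quantile normalization it was 0.65 (adjusted p = 0.00804), and it was 0.72 with array median centring and 0.78 with receptor centring. Both tissue means lay below the array medians of their groups, and no detection call was at hand. Ordered by deposited level, the groups ran RMVs, BMVs, RT and BT, and the difference between RMVs and BMVs did not pass the test.

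The excess was smaller in the retina than in the brain on the deposited scale, by -0.71 (log2, 95% confidence interval -1.31 to -0.10, limma adjusted p = 0.0404). Of all genes, 5.15% were called lower in this contrast at 2-fold, a size Or51e1 did not reach. The difference is built from the 2 excesses that the choice of the gene used. Their mean cancels in it, but its p-value is not independent of the choice. It rests on the tissue signals too, for which no detection call was at hand. With quantile normalization the difference was -0.24 (adjusted p = 0.509). On the deposited scale the call was also lost without RMV replicate 2, 4, 5 or 6, RT replicate 2, 4 or 6, BMV replicate 6, or BT replicate 3, 4 or 5, each left out alone. In those 11 of 24 fits the difference was -0.70 to -0.52 and the adjusted p was 0.0536 to 0.0828.

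The other olfactory receptors showed no such excess. Over 1184 of them the median difference was 0.49 in RMVs against RT (quartiles 0.28 and 0.71, range -1.27 to 2.29) and 0.43 in BMVs against BT (quartiles 0.21 and 0.67, range -1.07 to 2.74). Over all genes the medians were 0.33 and 0.30, and after quantile normalization both were -0.15, with the other receptors at -0.05 and -0.12. On the deposited scale 92 other receptors were called higher in RMVs (7.77%, beside 10.3% of all genes) and 95 in BMVs (8.02%, beside 16.3%). With quantile normalization 4 were called higher in RMVs (0.338%, beside 5.14% of all genes) and 5 in BMVs (0.422%, beside 9.91%). The receptors' share called was below that of all genes in each of these comparisons. Per array, the median signal of the other receptor clusters was 4.41 to 4.51 in RMVs, 3.89 to 3.96 in RT, 4.16 to 4.23 in BMVs and 3.67 to 3.77 in BT. The medians over all clusters were likewise higher on MV arrays, at 6.76 to 6.83, 6.10 to 6.22, 6.48 to 6.55 and 5.81 to 5.95.

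The receptor next to Or51e1 by size was a different gene in each organ, and none came close in both. In the retina it was Or8b101c, at 5.47 ± 0.05 in RMVs and 3.17 ± 0.17 in RT (log2, SD, n = 6), a difference of 2.29, which is 2.20 below that of Or51e1. The difference of Or8b101c between BMVs and BT was 0.33. In the brain it was Or9e1, at 8.44 ± 0.67 in BMVs and 5.69 ± 0.54 in BT, a difference of 2.74, which is 2.46 below that of Or51e1. Its difference between RMVs and RT was 0.85. The following receptors were Or10a3, Or13a27e, Or8b1 and Or4c58 in the retina (1.54 to 1.89) and Or5ac22, Or8b3, Or10ak14 and Or4m1 in the brain (1.55 to 2.13). All of these are class II receptors, picked here for their size and given without a test. Trailing letters mark close copies, whose probes can share signal, so Or8b101c, Or13a27e, Or51a25 and Or51a25b are uncertain.

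Of the other receptors 19 were called higher in both organs on the deposited scale, beside 7.38% of all genes, and 0 on the quantile scale, beside 4.33%. Or51e1 itself was past both thresholds in both organs on both scales, as its choice implies. For the next counts, 10.3% of all genes were called higher in RMVs and 16.3% in BMVs, and 5.14% and 9.91% after quantile normalization. Among the 126 other class I receptors 10 were called higher in RMVs and 11 in BMVs, with medians of 0.49 and 0.46, and 0 in either after quantile normalization. Among 992 class II receptors the counts were 80 and 75, with medians of 0.49 and 0.42, and 4 and 5 after quantile normalization. Family 51 without Or51e1 has 44 measured members, of which 2 were called higher in RMVs and 4 in BMVs, with medians of 0.52 and 0.49, and 0 in either after quantile normalization.

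**Figure D2:**
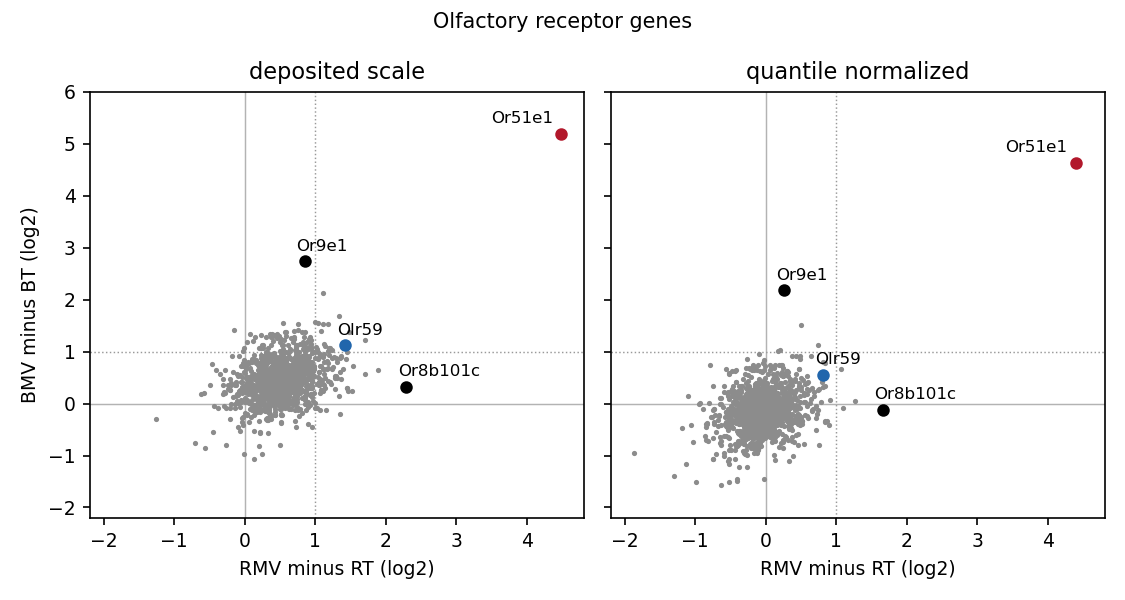
Difference of each of the 1185 olfactory receptor genes in RMVs minus RT (x axis, log2) and BMVs minus BT (y axis, log2), deposited (left) and quantile normalized (right). Dotted lines mark a difference of 1. Or51e1 stands at 4.49 and 5.20 on the deposited scale, apart from a cloud whose medians are 0.49 and 0.43.

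Olr59, the receptor for acetate and propionate in other species, was also higher in MVs but by far less. Its signal was 6.36 to 6.79 in RMVs (median 6.56) and 5.02 to 5.34 in RT (median 5.13). It was 7.27 to 7.76 in BMVs (median 7.48) and 6.09 to 6.51 in BT (median 6.39). The MV arrays lay above the tissue arrays of each organ without overlap, beside 42.6% of all genes in the retina and 40.8% in the brain. Both brain groups lay above their retinal counterparts. The differences were 1.43 in RMVs (2.69-fold, limma adjusted p = 4.18e-14) and 1.12 in BMVs (2.17-fold, adjusted p = 1.93e-12), which places it among the 19 receptors called in both organs. After quantile normalization they were 0.82 and 0.56, under 2-fold. Between organs Olr59 was 0.91 lower in RMVs than in BMVs (adjusted p = 3.57e-10) and 1.22 lower in RT than in BT (adjusted p = 5.30e-13). Or51e1 was, by contrast, higher in RT than in BT.

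The neighbours of Or51e1 on the chromosome are themselves olfactory receptors of families 51 and 52, and none shared its excess. In gene order, the 5 measured genes before it were Or52p2, Or52k2, Or52k1, Or52m2 and Or52m1, and the 5 after it were Or51a39, Or51a25b, Or51a25, Olr59 and Or51f5. Between RMVs and RT they differed by 0.23 to 1.43, and between BMVs and BT by 0.01 to 1.53. Or52m2 was higher in both (1.11 and 1.53, adjusted p = 5.04e-12 and 1.56e-15). After quantile normalization all 10 were below 1, with Or52m2 at 0.49 and 0.92. The 2 nearest measured genes, Or52m1 and Or51a39, differed by 0.45 and 0.24 in the retina and by 0.75 and 0.71 in the brain. Interspersed with these 10 are 9 annotated genes that were not analysed here, among them Or51h1, Or51d1, Or52i2 and Trim68.

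**Figure D3:**
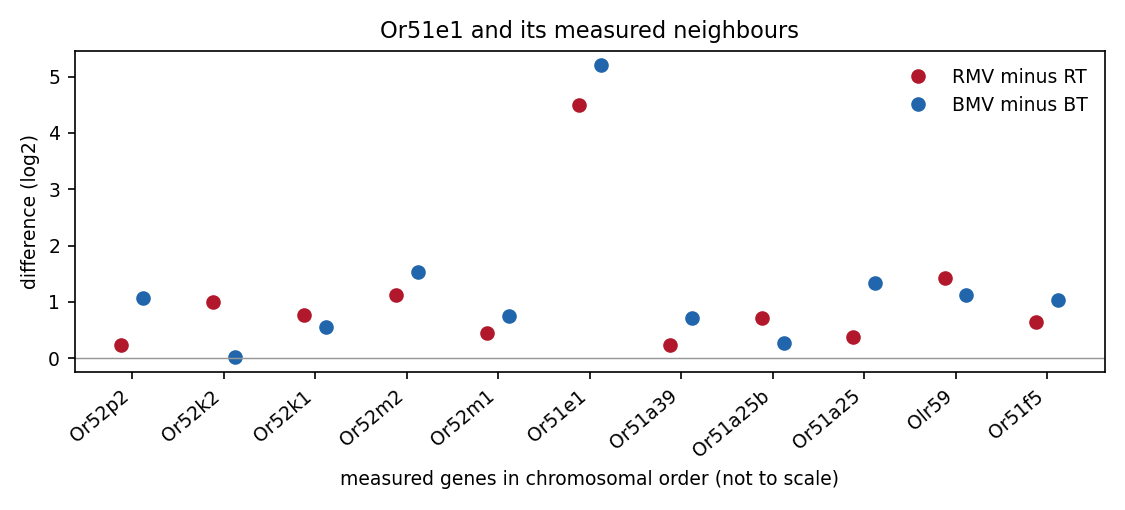
Differences (log2, deposited scale) of Or51e1 and the 5 measured genes on each side of it, in chromosomal order and not to scale, with red points for RMVs minus RT and blue points for BMVs minus BT. Or51e1 reaches 4.49 and 5.20, and no neighbour exceeds 1.53.

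The genes whose pattern over the 24 arrays was most like that of Or51e1 are named here with what is known of them. Likeness was measured as the root mean square difference after each gene's own mean was subtracted, over 24 arrays of 4 groups, so it mostly reads the contrast of MVs with tissue. Nearest was Aspn, a small leucine-rich proteoglycan of the extracellular matrix (0.381). It was followed by Mgp (0.447), an inhibitor of calcification, and Kcnmb1 (0.466), the β1 subunit of the large-conductance calcium-activated potassium channel of smooth muscle. Osmr (0.529), a receptor for oncostatin M, and Fhl5 (0.541), a LIM domain protein, came next. Vwf (0.564), the von Willebrand factor of endothelial cells, Hrct1 (0.580), Tm4sf1 (0.620), an endothelial membrane protein, and Ptgis (0.657), prostacyclin synthase, followed. The list of 12 ended with Slc38a5 (0.663), an amino acid transporter, Itga1 (0.666), a collagen-binding integrin subunit, and Ifitm1 (0.678), an interferon-induced membrane protein. By the same measure Olr59 stood at 2.02.

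These 12 genes were 3.38 to 4.78 higher in RMVs than in RT and 4.33 to 5.27 higher in BMVs than in BT. Aspn, at 9.23 ± 0.40 in RMVs and 5.17 ± 0.29 in RT, differed by 4.06, and by 4.97 in the brain (SD, n = 6). Kcnmb1 differed by 4.64 and 5.25, and Mgp by 4.78 and 5.27. Like Or51e1, Aspn was higher in RT than in BT (0.91) and near 0 between RMVs and BMVs (0.00). These genes were picked for this likeness, so their values are a description. Of the 12, Vwf and Kcnmb1 are also members of the lists given next.

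**Figure D4:**
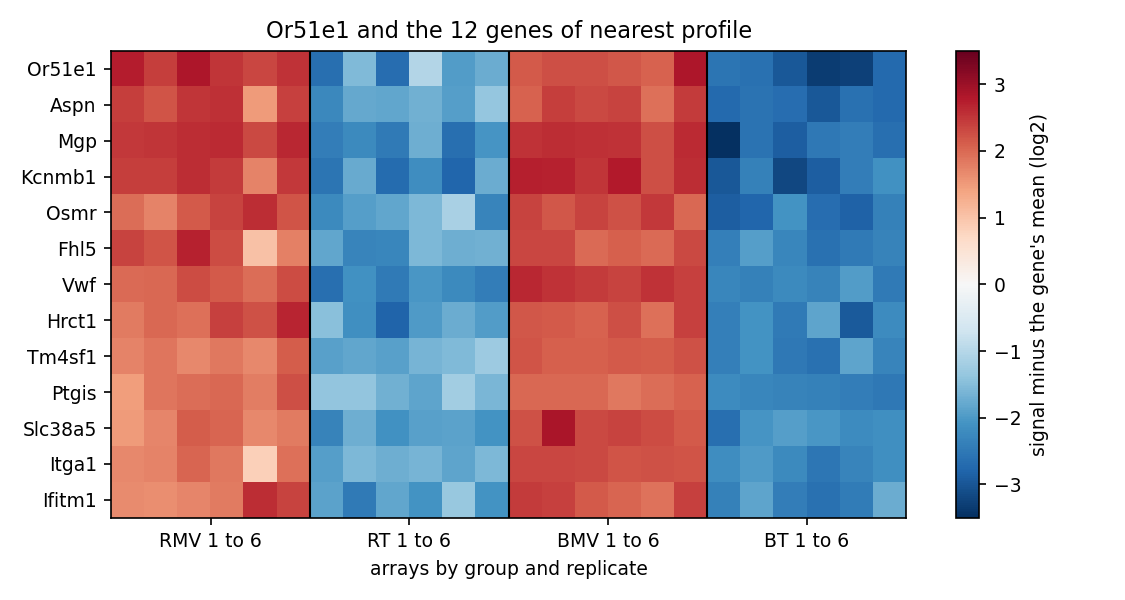
Signal of Or51e1 and the 12 genes of nearest profile on the 24 arrays, each minus the gene's own mean (log2, colour scale), ordered by group and replicate. MV arrays are above and tissue arrays below the mean for all 13 genes. RMV replicate 5 is the lowest RMV array for Or51e1, Aspn, Mgp, Kcnmb1, Fhl5, Vwf and Itga1, and the highest for Osmr and Ifitm1.

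Markers of vessel cells were also higher in the MVs of both organs, counted at the same thresholds of 2-fold and adjusted p. Of all genes, 10.3% were called higher in RMVs and 16.3% in BMVs. All 9 pericyte markers were higher in RMVs and in BMVs, with medians of 3.66 and 3.58, including Higd1b (4.43 and 3.86), Abcc9 (4.10 and 3.82) and the growth factor receptor Pdgfrb (3.52 and 3.58). All 8 measured endothelial markers were higher, with medians of 3.98 and 4.03, including Tek (4.20 and 4.16) and Cldn5 (3.99 and 3.14), a tight junction protein. Of 6 measured smooth muscle markers 5 were higher in RMVs and 6 in BMVs, with medians of 2.66 and 3.90, including Tagln (4.16 and 4.65), Des (3.79 and 4.69) and Myh11 (3.14 and 4.35). Lmod1 was the member not called in RMVs (0.64). The difference of Or51e1 was larger than that of each of these markers in both organs. Or51e1 was chosen for its large MV excess, so this order is a description without a test. In the retina its difference of 4.49 (confidence interval 4.07 to 4.92) was close to those of Higd1b and Vwf, both at 4.43. In the brain it was 5.20 (4.77 to 5.63), and the largest marker difference was that of Vwf at 4.76. Acta2, Cnn1, Pecam1 and Kdr were not analysed here.

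Markers of other cells moved differently in the 2 organs. Of 8 fibroblast markers 4 were higher in RMVs (median 0.94, beside 10.3% of all genes called) and 7 in BMVs (median 2.92, beside 16.3%), where Lum reached 4.72 and Slc6a13 reached 4.48. In RMVs these genes stood at 0.21 and 0.28. Dpt was the marker called lower in BMVs (-1.38) and differed by 0.57 in RMVs. After quantile normalization 2 fibroblast markers were higher and 1 was lower in RMVs, with a median of 0.36. Of 5 macrophage markers 1 was higher in RMVs, Stab1 (2.45), and 5 in BMVs, with medians of 0.78 and 3.23. The mean of the fibroblast list was 6.43 to 6.76 per array in RMVs, 5.61 to 5.88 in RT, 9.66 to 9.93 in BMVs and 7.11 to 7.46 in BT, while the difference of Or51e1 between RMVs and BMVs did not pass the test.

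The isolates also held RNA of the nervous tissue. None of 7 photoreceptor markers was called in either organ (medians -0.16 and 0.37), and their mean was 11.96 to 12.38 per array in RMVs and 12.33 to 12.46 in RT. Of 6 neuron markers 2 were lower in RMVs, Stmn2 (-1.28) and Nefl (-1.61), beside 0.947% of all genes. All 6 were lower in BMVs, beside 10.5% of all genes, and the medians were -0.70 and -2.88. Of 5 astrocyte markers 2 were lower in RMVs, Aqp4 (-1.43) and Slc1a3 (-1.35), 1 was higher, Gja1 (2.05), and in BMVs Aqp4 alone was lower (-1.49). Hba-a1, the only measured marker of red blood cells, differed by 1.97 in RMVs and 0.02 in BMVs. Beyond the relations within groups given next, their part in the Or51e1 values was not tested.

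Within a group, the relation of Or51e1 to vessel cell RNA was not settled by 6 arrays. Among 24 relations of Or51e1 with a list mean or the array median, each over the 6 arrays of a group, 0 passed the exact two-sided permutation test after adjustment, and 3 had an unadjusted p under 0.05. The lowest adjusted p was 0.1333 for Pearson's r and 0.2 for Spearman's rho. The relation of lowest p was that to the endothelial mean in BMVs (r = -0.86, exact p = 0.0056, adjusted p = 0.1333, rho = -0.94, exact p = 0.0167, adjusted p = 0.2, r without the 2 farthest arrays -0.96), and r was -0.65 after quantile normalization (exact p = 0.0833). Relations to vessel lists ran in both directions. The most positive were r = 0.78 for the endothelial mean and 0.71 for the smooth muscle mean in RT (rho = 0.77 for both). In RMVs r was 0.68 for the smooth muscle mean and 0.68 for the pericyte mean (rho = 0.77 for both), and leaving out the 2 farthest arrays gave -0.20 and -0.07. The adjusted p of these 4 was 0.26 to 0.3273 for r and 0.2722 for rho by the exact permutation test. In RT the relation to the photoreceptor mean had the next lowest (r = -0.93, exact p = 0.0194, adjusted p = 0.2333, rho = -0.94, exact p = 0.0167, adjusted p = 0.2, r without the 2 farthest arrays -0.72). For the fibroblast mean in BMVs these values were r = 0.71 (exact p = 0.0306, adjusted p = 0.2444) and rho = 0.71 (exact p = 0.1361, adjusted p = 0.2722), with r at 0.38 without the 2 farthest arrays.

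Of the signaling partners that olfactory neurons use with their receptors, none was higher in MVs by 2-fold. Among 17 measured genes of odor transduction 0 were called higher in RMVs (beside 10.3% of all genes) or BMVs (beside 16.3%). The medians were -0.17 and -0.27. In BMVs 5 were lower, Gng13 (-2.81), Reep1 (-2.43), the Golf subunit Gnal (-2.21), the exchanger Slc24a4 (-1.77) and the receptor kinase Grk3 (-1.09), beside 10.5% of all genes. After quantile normalization 2 were lower in RMVs and 6 in BMVs. Adcy3 was higher by less than 2-fold in both organs (0.67, adjusted p = 9.38e-06, and 0.50, adjusted p = 0.000286), and by 0.37 and 0.53 after quantile normalization. Gnas, the stimulatory G protein present in most cells, differed by 0.19 and 0.30. Its mean signal (5.63 in BT to 6.18 in RMVs) lay below the array medians of each group, which is low for such a gene, so its cluster may not measure it well. Cnga2 and Cnga4 also lay below these medians, and the values carry no detection call. Of 6 measured markers of olfactory neurons 0 were higher and Gng13 was lower in BMVs. Omp, the classical marker of mature olfactory neurons, differed by 0.36 and 0.38, near the median of all genes.

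Among 9 adenylyl cyclases, the enzymes that make cAMP, 1 was higher in RMVs and 2 in BMVs, while 4 were lower in BMVs. Of all genes 10.3% and 16.3% were called higher and 10.5% lower in BMVs, so the counts of higher members lay near the background. Adcy4 was higher in both (2.21, adjusted p = 1.67e-14, and 3.56, adjusted p = 1.34e-19), and Adcy6 differed by 0.96 and 1.79. Adcy1 and Adcy2, isoforms of neurons, were lower in BMVs (-2.72 and -2.66). The medians of this list were 0.45 and -0.56, and -0.09 and -1.13 after quantile normalization.

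Receptors and carriers for fatty acids and lactate showed no comparable excess. Of 8 such receptors 2 were higher in both organs, Olr59 and the lactate receptor Hcar1 (1.23 and 1.56), beside 7.38% of all genes. After quantile normalization 0 were, beside 4.33% of all genes. The short-chain fatty acid receptors Ffar2 and Ffar3 differed by 0.89 and 0.90, and by 0.43 and 0.80. Of 8 monocarboxylate carriers and partners 1 was higher in RMVs, near the 10.3% of all genes, and 3 in BMVs, beside 16.3%. Slc16a1, the carrier of lactate and ketone bodies at the blood-brain barrier, was higher by 1.19 and 1.16. Its partner Bsg differed by 0.32 and 1.81, and Emb was lower in both (-1.30 and -1.59).

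The lists of receptors and channels of mural cells held members with excesses of similar size. Which cell type holds the Or51e1 RNA was not determined, and whether the listed genes are confined to mural cells was not tested. The list of G protein-coupled receptors of mural cells has 15 measured genes, which include the receptor partner Ramp1. Of these, 7 were higher in RMVs (beside 10.3% of all genes) and 8 in BMVs (beside 16.3%), with medians of 0.83 and 1.33. After quantile normalization 6 and 7 were. P2ry14, a receptor for UDP-glucose, differed by 4.90 and 3.82, and Gpr4, a proton-sensing receptor, by 4.35 and 4.06. Gpr20 (2.21 and 3.03) and Calcrl (2.81 and 2.58), were also higher in both. Ramp1, with which Calcrl forms the receptor of calcitonin gene-related peptide, was the member called lower in BMVs (-1.86) and differed by 0.02 in RMVs. Of 9 ion channel genes of mural cells 6 were higher in RMVs and 5 in BMVs, beside the same shares of all genes, and 4 in each after quantile normalization. Kcnmb1 (4.64 and 5.25), Abcc9 (4.10 and 3.82), Kcnj8 (2.96 and 2.49) and Ano1 (2.49 and 2.89) led them, whereas Kcnma1, which encodes the pore that Kcnmb1 attaches to, differed by -0.27 and -1.89. Kcnma1 and the cation channel Trpc6 (0.12 and -1.23) were the members called lower in BMVs. The lists of cell types and mural genes share members, and Or51e1 is a member of none.

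**Figure D5:**
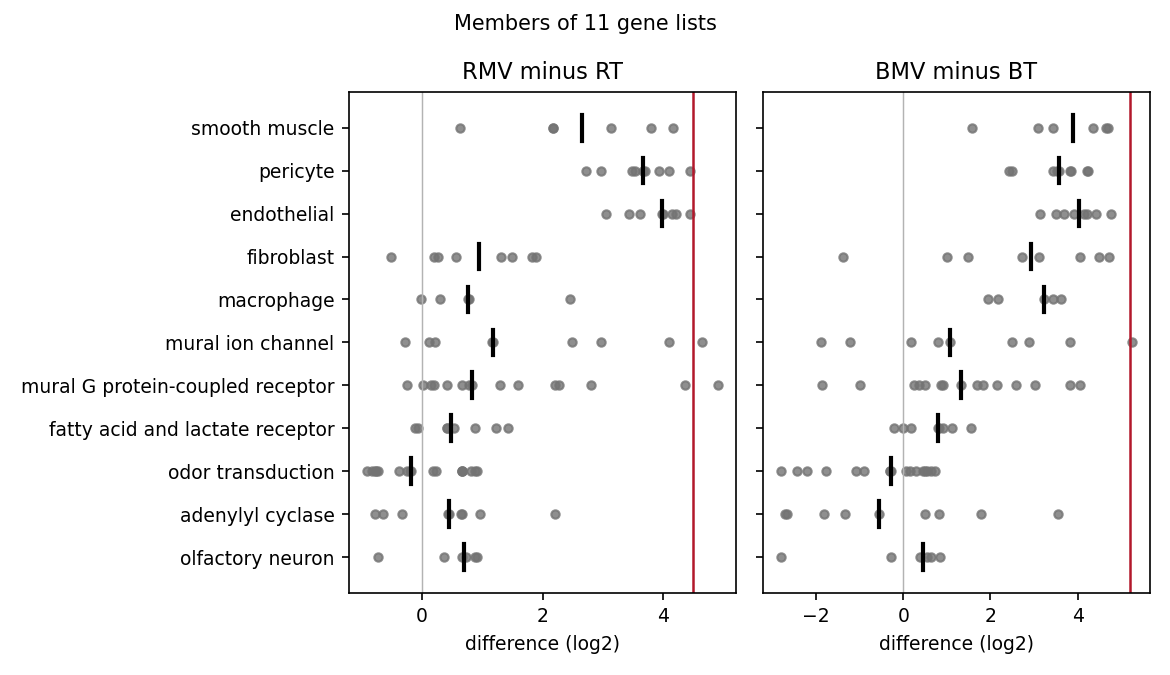
Differences (log2, deposited scale) of each measured member of 11 gene lists in RMVs minus RT and BMVs minus BT. Points are genes, black bars are list medians, and the red line is Or51e1 at 4.49 and 5.20. In RMVs, Kcnmb1 and P2ry14 are the listed genes beyond the red line, and in BMVs Kcnmb1 alone.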

How the data were processed

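The deposited log2 values were normalized by the authors in Affymetrix Expression Console (version 4.0), from 1 ng of total RNA per sample amplified for each array. Its method and annotation build were not given in the sources used here. Of 36685 clusters 18511 carried 1 gene symbol, 575 several and 17599 none, and 18394 were matched by Entrez identifier. Of several clusters of a gene, the brightest on average was kept (18166 genes). Array number limits the precision.

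A single limma model (limma 3.58.1, R 4.3.3) of the 4 groups without a replicate block was fitted over all 18166 genes, with two-sided Benjamini-Hochberg adjusted p-values. Genes were called at 2-fold and an adjusted p under 0.05, and tested on simulated data first. Relations within groups used exact permutation tests, and those within RT and BT were added after seeing the data.

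Or51e1, the gene lists and all named genes were chosen with earlier results of these data known. Named are Or51e1, Olr59, 5 neighbours on each side, the 5 largest other receptors per organ, the 12 nearest profiles, and list members with the largest change or that differ from their list. The planned ranking by protein sequence was not used here.

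Alternatives were quantile normalization, centring on array or receptor medians, the mean of clusters, removal of the dimmest 25% of genes, the compared groups alone, the replicate block, eBayes with trend and robust, limma's treat, and leaving out each array. Sequences are from RefSeq (GRCr8).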

Additional observations from a re-analysis of the deposited data

Results flagged for a closer look

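On the deposited scale the excess of Or51e1 differed between the organs, by -0.71 (log2, retina minus brain, limma adjusted p = 0.0404), and that of Olr59 by 0.31 in the opposite direction (adjusted p = 0.0276). After quantile normalization these were -0.24 (adjusted p = 0.509) and 0.26 (adjusted p = 0.0671), and both calls were lost. For Or51e1 the p-value is not independent of its choice, and the call was lost in 11 of the 24 fits that each left out an array. The genes picked for a profile like that of Or51e1 were chosen on arrays that hold this difference, so their values are a description without a test. On the deposited scale the difference was -1.11 for Itga1, -0.93 for Tm4sf1, -0.92 for Ptgis, -0.91 for Aspn, -0.87 for Osmr, -0.72 for Slc38a5, -0.61 for Kcnmb1, -0.49 for Mgp and -0.33 for Vwf. After quantile normalization it was -0.84 for Itga1, -0.68 for Tm4sf1 and -0.54 for Ptgis, and the other 6 lay between -0.49 (Aspn) and -0.05 (Vwf). Of all genes, 5.15% were called lower in this contrast at 2-fold.

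Of 56 groups of 6 arrays tested for an array far from the others, 6 held one, where chance flags about 1 in 20 groups. BMV replicate 6 was the highest BMV array for Or51e1 at 10.69, with the next at 10.11. RMV replicate 5 was the lowest RMV array for Aspn (8.46), Kcnmb1 (10.69) and Itga1 (10.43). BMV replicate 5 was lowest for Mgp at 11.92, and BMV replicate 2 was highest for Slc38a5 at 10.55.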

How the results depend on the processing

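Array number limits the precision of every value, and all differences rest on the authors' normalization, whose method is not known here. The Or51e1 excess stayed within its array spread in 18 of 20 alternatives for RMVs and 17 of 20 for BMVs. These tallies say little. The mean of clusters, removal of dim genes, the compared groups alone, the replicate block and eBayes with trend and robust cannot change this difference. Another 12 per organ leave out 1 array each. Of the changes of scale, quantile normalization moved the excess in BMVs, and both centrings moved it in both organs. The excess was 4.64 in BMVs with quantile normalization, 3.85 (RMVs) and 4.59 (BMVs) with array median centring, and 3.97 and 4.72 with receptor centring. RMV minus BMV turned to -0.0188 with array median centring (adjusted p = 0.942). The organ difference of the excess lost its call with quantile normalization (-0.24) and with treat at 2-fold (-0.71, adjusted p = 1.0), as did RT minus BT with treat (0.98, adjusted p = 1.0). Treat asks for a difference beyond 2-fold. The other causes were not tested. The relation of Or51e1 to the photoreceptor mean in RMVs went from r = 0.02 to -0.02 with quantile normalization.

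The receptors called higher in RMVs and BMVs were 92 and 95 as deposited, 4 and 5 after quantile normalization, 4 and 3 with array median centring, 6 and 9 with receptor centring, 10 and 12 without dim genes, and 20 and 23 with treat. With each array left out they were 90 to 105 and 94 to 106. The Or51e1 excess was then 4.35 to 4.67 in RMVs and 5.09 to 5.27 in BMVs, RMV minus BMV was 0.22 to 0.39, RT minus BT 0.80 to 1.13, and the difference of excess -0.85 to -0.52 (adjusted p 0.01 to 0.0828).

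Same-numbered arrays of 2 groups correlated at -0.09 to 0.15 in their deviations from the group means. Arrays of different number correlated at -0.015 to -0.005 on average. In 2 to 5 of 6 cases per pair of groups an array correlated best with its own number, more than unrelated numbers would give on average. Whether a number marks the same rat or another shared step was not tested. As neither labels nor methods say that it marks the same rat, the main model has no replicate block. The replicate block changed no call, with an adjusted p of 0.0452 for the difference of excess, 0.00026 for RT minus BT and 0.245 for RMV minus BMV, and receptor counts of 92 and 95.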
